A study of Homo sapiens with 6 samples.

Results

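TNFAIP3, OTUD7B, CYLD, TNIP1, TNIP2 and TNIP3 encode proteins that cut or bind ubiquitin chains and restrain signalling to the transcription factor NF-kappaB. These 6 genes of the 60461 in the deposited count table were chosen by name as a family. Results of the contrast between the groups, that of TNFAIP3 among them, were already known. The differences of the 6 genes between the groups are therefore given below as a description. All 6 passed the low-count filter and are among the 18899 genes tested. The libraries came from MDA-MB-231, a cell line of triple-negative breast cancer that has long been in culture. The first group was transduced with an adenovirus coding for the p110 form of ADAR1, a nuclear enzyme that turns adenosines of double-stranded RNA into inosines, and the other with an adenovirus coding for enhanced green fluorescent protein (GFP). Each group held 3 libraries of total RNA, both viruses were used at a multiplicity of infection of 200, the medium was renewed after 16 h and RNA was taken at 48 h. All 6 libraries thus carry an adenovirus, and cells without virus were not analysed here.

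Ubiquitin chains built on receptor complexes act as scaffolds on which the kinases that release NF-kappaB are assembled. A20, the product of TNFAIP3, CYLD and the OTUD7B product Cezanne are deubiquitinases that take such chains apart, and the ABIN proteins encoded by TNIP1, TNIP2 and TNIP3 bind chains and A20. TNFAIP3 is itself a classical target of NF-kappaB, which makes A20 a feedback inhibitor of the pathway that induces it.

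The promoters are shown first because the letters they hold differ between the members. RefSeq (GRCh38.p14) gave 11 windows for the 6 genes, each from 250 bases before to 50 bases after an annotated start. They were searched on both strands for the classical kappaB consensus, the 10-base binding site of NF-kappaB, and for GGNNTTTCC, a 9-base core that lies within the consensus where both match. The motifs were picked after the windows had been seen. Capitals mark matches to the consensus, and each sequence is written 5′ to 3′ on the strand of its gene.
TNFAIP3, chr6:137867009-137867308, plus strand: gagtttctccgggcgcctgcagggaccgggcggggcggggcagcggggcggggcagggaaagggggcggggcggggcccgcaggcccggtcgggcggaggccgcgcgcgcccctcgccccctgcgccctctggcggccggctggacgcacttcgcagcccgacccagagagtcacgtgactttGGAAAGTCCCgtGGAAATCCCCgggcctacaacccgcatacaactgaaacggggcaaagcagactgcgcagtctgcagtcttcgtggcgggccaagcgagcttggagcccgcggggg
TNIP1, chr5:151080985-151081284, minus strand: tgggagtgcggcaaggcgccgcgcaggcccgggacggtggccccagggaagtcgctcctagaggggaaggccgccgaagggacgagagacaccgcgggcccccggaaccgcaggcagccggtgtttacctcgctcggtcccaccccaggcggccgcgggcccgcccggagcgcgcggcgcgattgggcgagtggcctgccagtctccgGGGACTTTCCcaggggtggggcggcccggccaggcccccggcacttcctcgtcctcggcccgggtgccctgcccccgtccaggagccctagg
CYLD, chr16:50741836-50742135, plus strand: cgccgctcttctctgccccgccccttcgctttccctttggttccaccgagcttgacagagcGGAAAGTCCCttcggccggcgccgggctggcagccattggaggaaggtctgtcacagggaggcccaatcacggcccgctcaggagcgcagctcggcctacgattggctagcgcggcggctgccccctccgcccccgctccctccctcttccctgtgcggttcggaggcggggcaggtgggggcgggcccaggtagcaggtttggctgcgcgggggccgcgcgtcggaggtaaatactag
TNIP3, window 1, chr4:121227434-121227733, minus strand: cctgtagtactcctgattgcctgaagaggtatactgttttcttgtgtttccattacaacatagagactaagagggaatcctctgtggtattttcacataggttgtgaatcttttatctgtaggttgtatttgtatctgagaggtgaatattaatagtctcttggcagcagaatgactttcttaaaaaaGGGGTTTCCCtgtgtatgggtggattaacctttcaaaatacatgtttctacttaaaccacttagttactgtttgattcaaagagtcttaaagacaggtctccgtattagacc
TNIP3, window 3, chr4:121164272-121164571, minus strand: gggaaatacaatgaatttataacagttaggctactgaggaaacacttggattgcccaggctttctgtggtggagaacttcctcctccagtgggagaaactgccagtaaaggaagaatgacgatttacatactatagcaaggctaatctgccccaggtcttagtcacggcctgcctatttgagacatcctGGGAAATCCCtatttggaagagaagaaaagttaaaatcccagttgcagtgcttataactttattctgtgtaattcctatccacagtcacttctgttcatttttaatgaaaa

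The TNFAIP3 window holds 2 matches close together on the opposite strand, from 67 to 58 and from 55 to 46 bases before the start. The TNIP1 match lies 42 to 33 bases before the start and that of CYLD 189 to 180 bases before it. The letters GGGACTTTCC, read on either strand, occur in these windows of TNFAIP3, TNIP1 and CYLD and in 0.191% of the 35116 windows in the RefSeq table. TNIP3 has matches in windows 1 and 3, 62 to 53 and 61 to 52 bases before the starts, with different letters. A further CYLD window holds a consensus match, GGGGCTTCCC, just after the start and no core match.

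No match to either motif is in the single windows of TNIP2 and OTUD7B, which says only that these letters are not in those windows. Counted by window, 6 of the 9 windows of TNFAIP3, CYLD, TNIP1 and TNIP3 hold the consensus and 5 hold the core, against 7.73% and 6.26% of all windows. These genes are the members with a match, and they are also those whose transcripts fell with ADAR1 p110. The motifs were picked with these windows already seen. The excess over all windows thus follows in part from the grouping, and nothing is read from it. Genes with several windows have more chances of a match, and TNIP2 and OTUD7B have 1 window each. A match is a stretch of letters and was not tested for binding.

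Levels are in CPM, the standard depth-scaled unit of counts, after TMM scaling of the library totals. These totals ran from 72741235 to 99589278 counts. ADAR itself was at 1011, 1015 and 991 CPM in the ADAR1 p110 libraries, against 257.2, 271.9 and 272.4 CPM in the GFP libraries. In the ADAR1 p110 libraries, ADAR transcripts of the virus and of the cell cannot be told apart. On the second principal component, ADAR1 p110 replicate 1 and GFP replicate 2 stood apart from the other 4 libraries, at 26.2 and 24.1 against -18.2 to -7.49. The mesenchymal markers VIM, CD44 and AXL of the cell line were abundant, and the hormone receptor genes ESR1 and PGR were near 0. ERBB2, a receptor gene listed as low in such cells, stood at 90.1 ± 2.04 CPM with ADAR1 p110 and 85.8 ± 3.16 CPM with GFP (SD, n = 3 each). Of the epithelial markers, CDH1 was called higher, at 4.15 ± 0.241 CPM with ADAR1 p110 and 2.80 ± 0.0845 CPM with GFP, and EPCAM was not called, at 10.6 ± 0.291 CPM with ADAR1 p110 and 10.2 ± 0.0710 CPM with GFP (SD, n = 3 each). Markers of leukocytes, endothelium and fibroblasts, 8 genes, summed to 9.52 to 10.3 CPM with ADAR1 p110 and 11.2 to 13.3 CPM with GFP, mostly from CSF1R and CD14, while CD3E was at 0 in all libraries and PTPRC at 0.281 ± 0.146 CPM with ADAR1 p110 and 0.277 ± 0.0495 CPM with GFP (SD, n = 3 each). The part of this difference in the results below was not tested. In bulk RNA, fewer cells expressing a gene and less RNA per cell cannot be told apart.

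Transcripts of 4 of the 6 genes fell with ADAR1 p110. TNFAIP3 and TNIP3 were 3.92-fold and 4.12-fold lower, TNIP1 1.85-fold lower and CYLD 1.31-fold lower, while OTUD7B and TNIP2 were not called. The test was edgeR's quasi-likelihood test, and a gene was called at a Benjamini-Hochberg adjusted p under 0.05 over all tested genes. It called 4.91% of all tested genes, 2.96% as lower and 1.95% as higher, or 510 higher and 479 lower genes when library size alone set the scale in place of 368 and 559. The groups did not overlap in the same 4 members, as in 24.0% of all tested genes. Because the members were chosen with this contrast in view, nothing is read from these counts. The labels call the libraries biological replicates but do not say that they came from separate cultures. The p-values below then reflect the spread among these libraries, which may be technical.

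**Figure D1:**
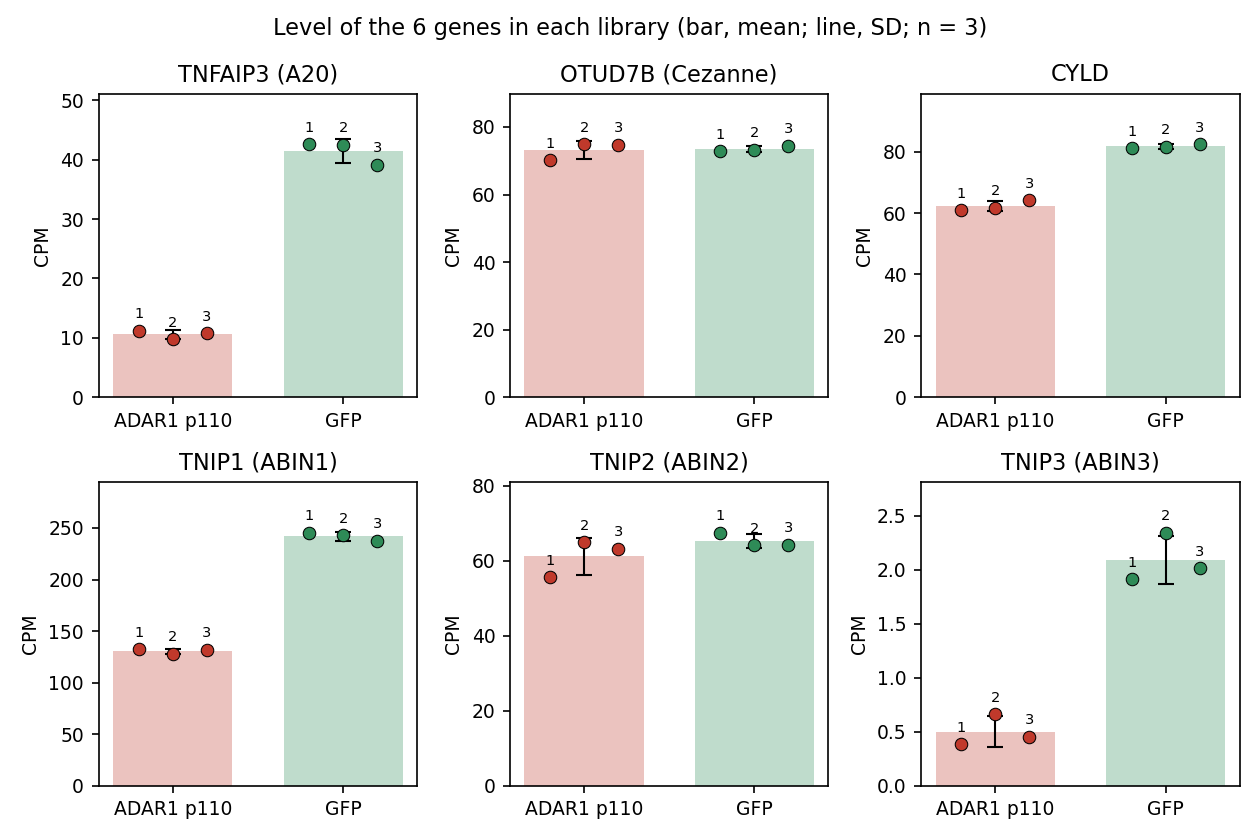
CPM (vertical axis, from 0) of the 6 genes in each library, with ADAR1 p110 in red at left and GFP in green at right; bars are group means, lines are SD (n = 3) and digits are replicate numbers. The groups lie apart for TNFAIP3, CYLD, TNIP1 and TNIP3 and overlap for OTUD7B and TNIP2.

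Among the deubiquitinases, TNFAIP3 (ENSG00000118503.14_3, hg19 chromosome 6, 138188325 to 138204449, plus strand) changed most. Its level in CPM was 11.1, 9.78 and 10.8 in ADAR1 p110 replicates 1, 2 and 3, against 42.6, 42.6 and 39.1 in the GFP replicates. The lowest GFP library was thus above the highest ADAR1 p110 library by a wide margin, and the libraries of a group lay close together. The means were 10.6 ± 0.707 CPM with ADAR1 p110 and 41.4 ± 2.002 CPM with GFP (SD, n = 3 each), a log2 fold change of -1.97 (SE 0.071, 95% interval -2.13 to -1.82). Of all tested genes, 0.201% had a lower log2 fold change.

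CYLD (ENSG00000083799.17_3, hg19 chromosome 16, 50775961 to 50835846, plus strand), a tumour suppressor of the USP type that acts on non-degradative chains, changed far less. It stood at 60.9, 61.8 and 64.1 CPM in the ADAR1 p110 libraries, against 81.1, 81.6 and 82.5 CPM in the GFP libraries. The difference was modest but the spread was narrow, 2.69% of the mean with ADAR1 p110 and 0.846% with GFP, so the groups did not overlap. CYLD averaged 62.3 ± 1.67 CPM with ADAR1 p110 and 81.8 ± 0.692 CPM with GFP (SD, n = 3 each), a log2 fold change of -0.39 (SE 0.049, 95% interval -0.50 to -0.28).

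OTUD7B (ENSG00000264522.5_2, hg19 chromosome 1, 149909705 to 149982625, minus strand) encodes Cezanne, an OTU deubiquitinase related to A20 by its catalytic domain and known for sparing TRAF3 from degradation. Its levels were 70.2, 74.9 and 74.8 CPM in the ADAR1 p110 libraries and 72.8, 73.2 and 74.5 CPM in the GFP libraries. The groups overlapped, with the lowest value in ADAR1 p110 replicate 1. The log2 fold change was -0.0037 (SE 0.051), and its 95% interval, -0.12 to 0.11, does not reach the difference of CYLD. Its sign depends on scaling, being positive, at 0.020, with library size alone.

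Of the adaptors, TNIP1 (ENSG00000145901.14_4, hg19 chromosome 5, 150409506 to 150473138, minus strand) had the most counts. ABIN1, its product, binds ubiquitin chains through a dedicated domain and helps A20 to reach its substrates. TNIP1 stood at 132.1, 127.8 and 131.9 CPM in the ADAR1 p110 libraries, against 245.5, 243.0 and 237.4 CPM in the GFP libraries. The separation was complete, and the SD was 1.87% of the mean with ADAR1 p110 and 1.72% with GFP. Mean levels were 130.6 ± 2.44 CPM with ADAR1 p110 and 242.0 ± 4.15 CPM with GFP (SD, n = 3 each), a log2 fold change of -0.89 (SE 0.047, 95% interval -0.99 to -0.79).

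TNIP2 (ENSG00000168884.14_3, hg19 chromosome 4, 2743375 to 2758103, minus strand) encodes ABIN2, which also stabilises the kinase TPL2. TNIP2 had 55.6, 64.9 and 63.2 CPM in the ADAR1 p110 libraries and 67.5, 64.2 and 64.3 CPM in the GFP libraries. ADAR1 p110 replicate 1 was the lowest library, replicate 2 lay within the range of GFP and replicate 3 just below it. The log2 fold change was -0.093 (SE 0.065, 95% interval -0.24 to 0.050), and without ADAR1 p110 replicate 1 it was -0.028.

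TNIP3 (ENSG00000050730.15_3, hg19 chromosome 4, 122052563 to 122148621, minus strand) encodes ABIN3, an inducible member of the ABIN family, and was scarce. Its counts were 29, 65 and 35 with ADAR1 p110, against 166, 170 and 198 with GFP. These are 0.382, 0.660 and 0.453 CPM with ADAR1 p110, against 1.91, 2.34 and 2.01 CPM with GFP. All GFP libraries were higher, but the spread was 29.0% of the mean with ADAR1 p110, the widest of the 6 genes. The log2 fold change of -2.04 (SE 0.215, 95% interval -2.52 to -1.57) is therefore the least precise. Leaving out ADAR1 p110 replicate 2 gave -2.31, and leaving out replicate 1 gave -1.89.

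TNFAIP3, CYLD, TNIP1 and TNIP3 were called lower and OTUD7B and TNIP2 were not called in each of the 14 alternatives run. Without the 2 libraries that stood apart, the log2 fold changes were -1.99 for TNFAIP3, -0.38 for CYLD, -0.89 for TNIP1 and -1.80 for TNIP3.

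**Figure D2:**
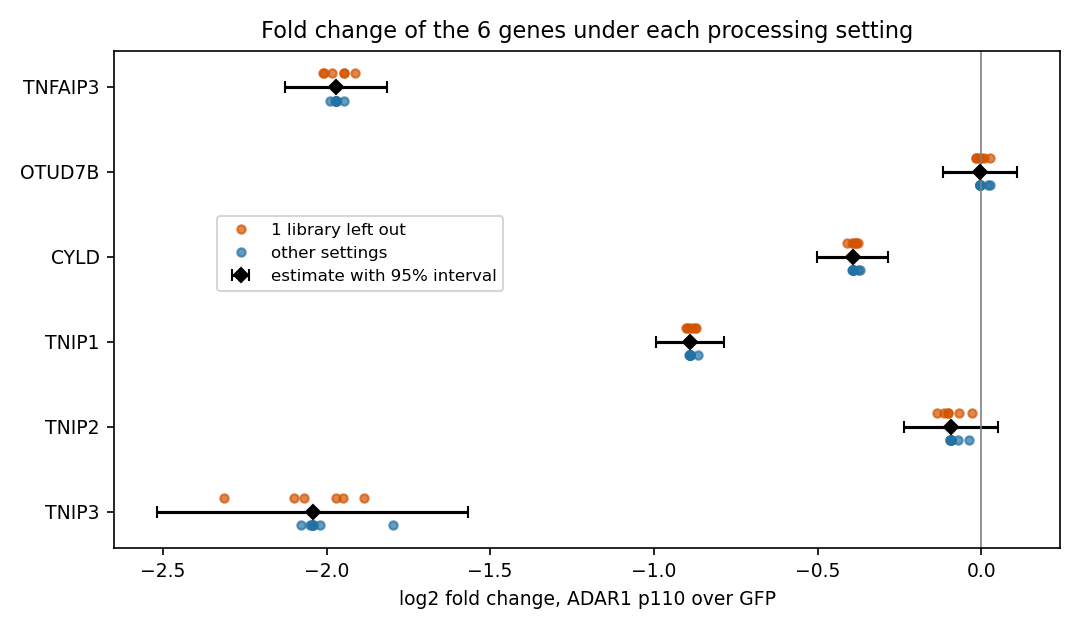
Horizontal axis, log2 fold change (ADAR1 p110 over GFP) of the 6 genes, with the estimate and its 95% interval as black diamonds and lines, fits leaving out 1 library in orange and the other settings in blue. TNFAIP3 stays between -2.01 and -1.91, TNIP1 between -0.90 and -0.87 and CYLD between -0.41 and -0.37, while the points of OTUD7B lie on both sides of 0.

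The order of the genes was compared on levels per length, as CPM per kb of the gene length given in the table. With ADAR1 p110, TNIP2 and TNIP1 stood level at 22.8 ± 1.85 and 22.5 ± 0.422 CPM per kb (SD, n = 3 each), the range of TNIP1 lying inside that of TNIP2. OTUD7B came next at 6.04 ± 0.220, then CYLD at 4.81 ± 0.129, TNFAIP3 at 2.09 ± 0.140 and TNIP3 at 0.132 ± 0.0383 CPM per kb. Below the leading pair no neighbours overlapped in range.

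With GFP the order was different. TNIP1 led at 41.8 ± 0.716 CPM per kb, ahead of TNIP2 at 24.3 ± 0.706 (SD, n = 3 each). TNFAIP3 followed at 8.20 ± 0.396, then CYLD at 6.31 ± 0.0534, OTUD7B at 6.05 ± 0.0713 and TNIP3 at 0.555 ± 0.0598 CPM per kb. No neighbours overlapped, although CYLD and OTUD7B lay close, with lowest and highest libraries of 6.26 and 6.37 for CYLD and of 5.99 and 6.13 CPM per kb for OTUD7B. Per length, TNFAIP3 was thus the lowest of the 3 deubiquitinases with ADAR1 p110 and the highest with GFP. In CPM, not divided by length, it was the lowest in both groups. With GFP it then stood at 41.4 CPM, against 81.8 for CYLD and 73.5 for OTUD7B. The order thus depends on the gene length used, and the lengths of the expressed transcripts are not known here.

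**Figure D3:**
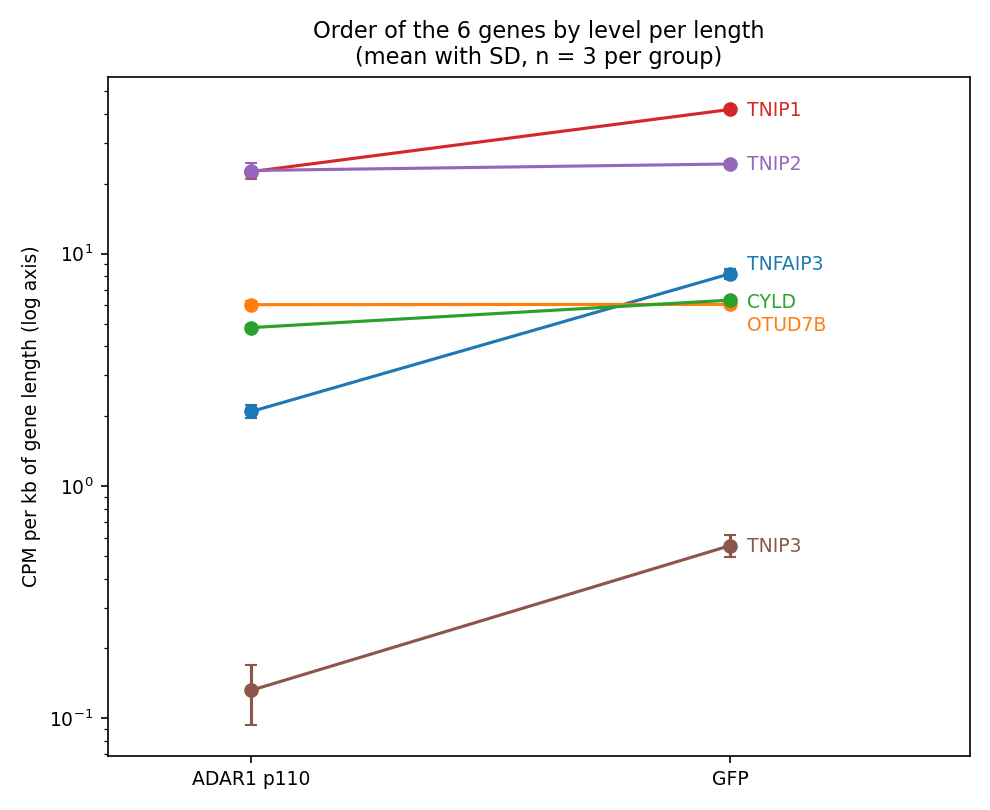
Mean CPM per kb of gene length (vertical log axis) of the 6 genes with ADAR1 p110 (left) and GFP (right), with SD (n = 3). TNFAIP3, at 2.09 against 8.20, crosses the lines of CYLD and OTUD7B, and TNIP1, at 22.5 against 41.8, meets TNIP2 on the left.

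Ratios formed within each library do not depend on its scaling. Per length, TNFAIP3 had 0.0968, 0.0878 and 0.0938 times the level of TNIP1 in the ADAR1 p110 libraries, against 0.199, 0.201 and 0.189 times in the GFP libraries. The ratio of the deubiquitinase to its adaptor was lower in all ADAR1 p110 libraries. Relative to OTUD7B, TNFAIP3 stood at 0.382, 0.314 and 0.347 in the ADAR1 p110 libraries, against 1.41, 1.40 and 1.26 in the GFP libraries. TNIP1 relative to TNIP2 was 1.10, 0.912 and 0.968 in the ADAR1 p110 libraries, against 1.69, 1.76 and 1.71 in the GFP libraries. The balance between TNIP1 and TNIP2 was near even with ADAR1 p110 and on the side of TNIP1 with GFP. CYLD relative to OTUD7B was 0.813, 0.774 and 0.804 in the ADAR1 p110 libraries, against 1.05, 1.04 and 1.04 in the GFP libraries. The groups did not overlap in these 4 ratios, which restate the differences of TNFAIP3, TNIP1 and CYLD given above. How often other gene pairs do so was not counted. The summed level of the 6 genes was 330.3, 339.9 and 345.3 CPM in the ADAR1 p110 libraries, against 511.5, 507.0 and 499.8 CPM in the GFP libraries. Of the summed level per length of the 6 genes, TNFAIP3 made up 3.27% to 3.92% with ADAR1 p110 and 9.04% to 9.66% with GFP.

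The rest of the pathway was followed in 7 lists with 64 tested genes, of which 13 fell and none rose. The called share was 20.3%, against 4.91% of all tested genes (2.96% lower). Of the 13 calls, 7 came from the list of other NF-kappaB feedback genes. The lists of linear chain enzymes, chain-carrying proteins and USP and JAMM deubiquitinases gave none. All 7 lists were written with earlier results of these data known, that of feedback genes with falls of some of its genes known. The pooled share is therefore a description. At an unadjusted p under 0.05, edgeR gave 1 higher and 24 lower genes. That cut is wide, as the kinase gene RIPK1, which passes it, ranked 3467 by p among all tested genes. The share of all tested genes that pass it was not counted. The calls were 0 higher and 16 lower with DESeq2 and 0 higher and 14 lower with limma-voom, against 1302 and 958 calls over all genes. The count of called list genes was 22 without ADAR1 p110 replicate 1 (1 higher, 21 lower). It was 24 without the 2 libraries that stood apart (1 higher, 23 lower). Over all genes these settings gave 1812 calls of 19715 and 2605 of 19465, against 927 of 18899, so the background rose too. The list count was 11 without ADAR1 p110 replicate 2 or 3 or GFP replicate 1 or 3, with 396 to 483 calls over all genes. The median log2 fold change of the 64 genes was -0.095, against 0.0048 over all tested genes.

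Of the 5 partners of A20 and CYLD, 1 fell, and their median log2 fold change was -0.11. OPTN, a ubiquitin-binding protein that recruits CYLD, had 153.3 ± 3.96 CPM with ADAR1 p110 and 204.8 ± 3.03 CPM with GFP (SD, n = 3 each; log2 fold change -0.42, SE 0.047, edgeR adjusted p = 0.000513). TAX1BP1, ITCH and RNF11, which work with A20, and SPATA2, which links CYLD to the linear chain ligase, were not called (log2 fold changes -0.12, -0.10, 0.033 and -0.11). The 95% intervals of TAX1BP1 (-0.23 to -0.016) and ITCH (-0.21 to -0.0018) lay below 0. At an unadjusted p under 0.05, edgeR gave 3 lower of the 5, and it called 2 lower without the 2 libraries that stood apart. No enzyme of linear chains was called among 5 by edgeR, DESeq2 or limma-voom, nor had any an unadjusted p under 0.05 with edgeR, and their median was 0.040. UBE2L3, a conjugating enzyme with the highest CPM of them, had 99.9 ± 4.62 CPM with ADAR1 p110 and 106.7 ± 7.85 CPM with GFP (SD, n = 3 each).

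Ligases and conjugating enzymes that build signalling chains gave 4 lower genes of 10, with a median log2 fold change of -0.17. BIRC3, which encodes the ligase cIAP2, fell to 114.7 ± 6.90 CPM with ADAR1 p110, against 444.5 ± 14.7 CPM with GFP (SD, n = 3 each; edgeR adjusted p = 1.07e-08). BIRC2, TRAF3 and TRAF2, which form a ligase complex with it, fell by 0.54, 0.33 and 0.25 on the log2 scale (edgeR adjusted p = 4.63e-05, 0.00534 and 0.0176). The call of TRAF2 was lost without ADAR1 p110 replicate 2 or 3 or GFP replicate 1 or 3 (log2 fold changes -0.25 to -0.23). TRAF5, the ligases TRAF6 and XIAP and the conjugating pair UBE2N and UBE2V1 were not called by edgeR (log2 fold changes -0.022, -0.034, -0.090, 0.0057 and -0.011). The ligase PELI1 was not called either (edgeR adjusted p = 0.0647), although its log2 fold change, -0.37, was larger in size than those of TRAF3 and TRAF2. Of the 10 genes, DESeq2 called 5 lower and limma-voom 4. Without the 2 libraries that stood apart, edgeR called 6 lower, with 2605 calls over all genes.

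Proteins that carry or read the chains gave no call among 12 by edgeR, DESeq2 or limma-voom, with a median log2 fold change of -0.033. At an unadjusted p under 0.05, edgeR gave 1 higher and 3 lower, a cut whose share over all tested genes was not counted. The same counts were called without ADAR1 p110 replicate 1, a setting with 1812 calls over all genes. They include the kinase RIPK1 (-0.11), a substrate of A20, the chain-binding kinase subunit IKBKG or NEMO (0.093), and MALT1 (-0.019), the protease that cleaves A20 and CYLD. MALT1 had the highest CPM of the list, with 109.95 ± 2.39 CPM with ADAR1 p110 and 111.4 ± 2.44 CPM with GFP (SD, n = 3 each), and the sign of its difference turned with library size alone (0.0048).

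Other deubiquitinases of the OTU family gave 1 lower gene of 10 tested, OTUB2, which fell by 0.29 on the log2 scale (edgeR adjusted p = 0.0145). This call was lost without ADAR1 p110 replicate 2 or 3 or GFP replicate 1 or 3 (log2 fold changes -0.29 to -0.26). DESeq2 and limma-voom each called 2 of the 10 lower, and edgeR 4 without ADAR1 p110 replicate 1, with 1812 calls over all genes. OTUD7A, the closest relative of OTUD7B, did not pass the low-count filter. None of 13 deubiquitinases of the USP and JAMM families was called by edgeR, DESeq2 or limma-voom. With edgeR, 3 had an unadjusted p under 0.05, all lower, and the share of all tested genes at that cut was not counted. USP7, with the highest CPM of them, had 114.9 ± 3.80 CPM with ADAR1 p110 and 122.0 ± 1.36 CPM with GFP (SD, n = 3 each).

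Other feedback genes of NF-kappaB gave the most calls, 7 lower of 9, with a median log2 fold change of -0.52. DESeq2 called 8 of them lower and limma-voom 7. ZC3H12A, which encodes the RNase Regnase-1, fell to 12.1 ± 0.545 CPM with ADAR1 p110, against 40.5 ± 1.30 CPM with GFP (SD, n = 3 each; log2 fold change -1.74, edgeR adjusted p = 4.07e-08). TRAF1, NFKBIA and NFKBIE, an adaptor and 2 IkappaB inhibitors, fell by 1.47, 1.34 and 0.72 on the log2 scale (edgeR adjusted p = 1.43e-07, 3.93e-07 and 0.000135). This list was written with falls of some of its genes already known, so its direction is not independent evidence.

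**Figure D4:**
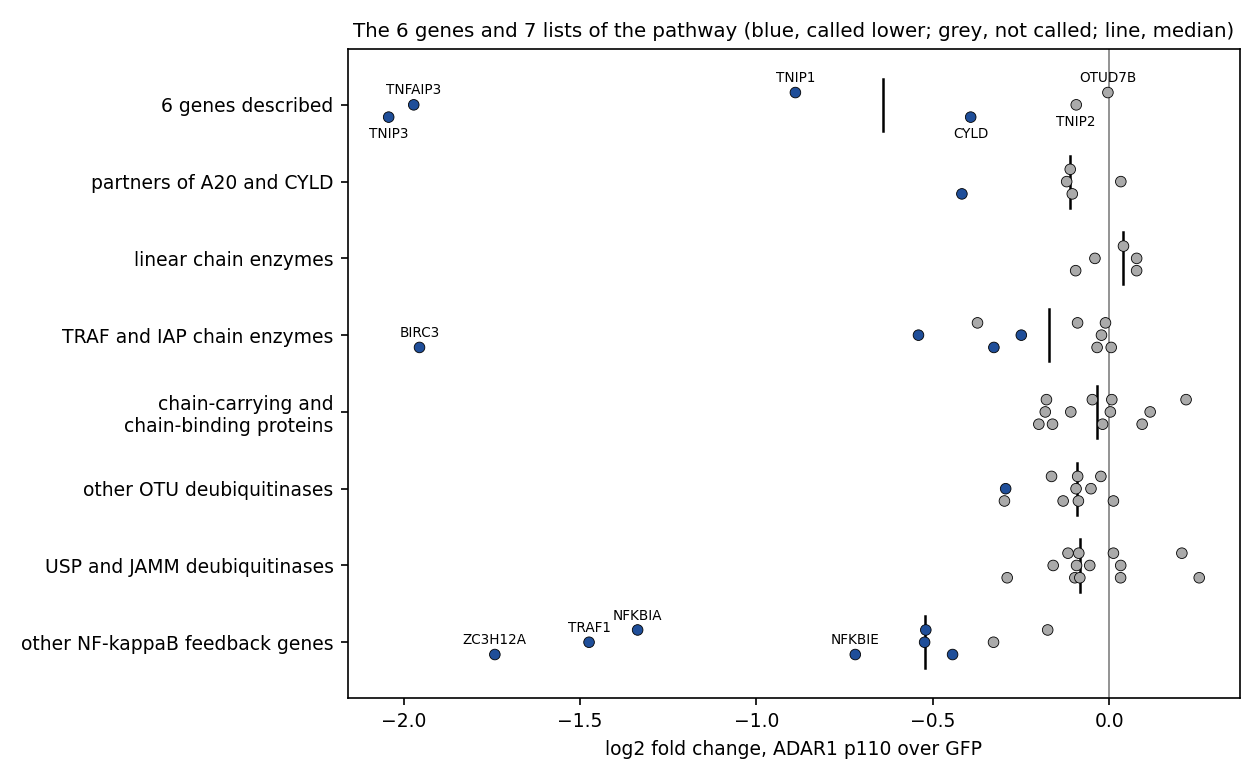
Horizontal axis, log2 fold change (ADAR1 p110 over GFP) of the 6 genes and of the tested genes of 7 pathway lists, 1 point per gene, with genes called lower in blue, genes not called in grey and the median of each list as a vertical line. Blue points gather in the list of NF-kappaB feedback genes, 7 of 9, and the lists of linear chain enzymes, chain-carrying proteins and USP and JAMM deubiquitinases hold none.

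The kappaB consensus was in a RefSeq window of 7 of the 12 called list genes that have one, and of 2 of the 41 list genes that were not called. The core was in a window of 7 and of 4 of these genes, or 58.3% of the called and 9.76% of the others. Over the whole table, the consensus was in 24.5% of the 412 genes called lower that have a window, 11.1% of 243 called higher and 11.4% of 10585 not called. The core was in 20.6% of those called lower, 6.17% of those called higher and 8.53% of those not called. The lists include feedback genes of NF-kappaB and were written with earlier results of these data known. The motifs were picked after the windows of the members had been seen. These shares are therefore a description. Genes with several windows have more chances of a match, and binding was not tested.

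Profiles were compared over the 6 libraries by the root mean square difference of log2 CPM, centred for each gene, among 11924 protein-coding genes of at least 1 CPM. The likeness rests largely on the difference between the groups and is a description. BIRC3 was nearest to TNFAIP3, at 0.0342, followed by the complement gene C3 at 0.0945 and the transcription factor gene POU2F2 at 0.0976. SP110 (0.0191), OPTN (0.0243) and DUSP5 (0.0251) were nearest to CYLD. NFKB2 (0.0426), BMF (0.0464) and CSF1 (0.0541) were nearest to TNIP1. CXCL3, TMPRSS2 and CXCL2 were the nearest to TNIP3, but at 0.228 to 0.245.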

How the data were processed

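Total RNA of 6 libraries, 3 per group, was sequenced from a stranded total RNA kit, per the labels' protocols. The deposited values are raw gene counts, and the submitters' processing notes name the build hg19, the aligner STAR 2.5.2a, the read counter featureCounts 1.5.1, DESeq2 1.4.5 and R 3.1. The strand setting and the handling of multiple alignments are not known from the sources read here, so reads of overlapping genes cannot be told apart with certainty. The deposited table also gives gene length, another column per the file headers, used for CPM per kb.

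Genes were filtered with filterByExpr (minimum count 10), scaled by TMM and tested with glmQLFit and glmQLFTest of edgeR 4.0.16 in R 4.3.3. Group was the sole term, with Benjamini-Hochberg adjustment over 18899 genes at 0.05. Intervals (95%) come from the SE, the log2 fold change over the root of F, and the median total degrees of freedom of the test. Library totals ran from 72741235 to 99589278 counts, and intervals cover the spread between these libraries. DESeq2 1.42.0, limma 3.58.1 (voom), other scalings, no filter, a replicate block, removal of ADAR counts and left-out libraries were alternatives. Profiles used log2 CPM with a prior count of 2. The tests were checked on simulated counts. Replicates differed by 8.68 to 40.1 in chi-square per degree of freedom, more than counting noise gives, so each was counted as a library of its own. Repeat preparations of 1 culture would pass this check.

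Members and lists were chosen with earlier results of these data known. Named were the members, up to 4 called genes per list or the one of highest CPM, the 3 nearest profiles of each called member and genes overlapping a member. List genes beyond that rule were picked after their values were seen. Promoter sequences are RefSeq's, on GRCh38.p14, and were matched by symbol for 6 of 6 members. Their coordinates are not those of the hg19 table.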

Additional observations from a re-analysis of the deposited data

How the results depend on the processing

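The 4 calls among the members were kept in all 14 alternatives, with log2 fold changes between -2.01 and -1.91 for TNFAIP3, -0.90 and -0.87 for TNIP1, -0.41 and -0.37 for CYLD and -2.31 and -1.80 for TNIP3. OTUD7B turned sign without a call, at 0.020 with library size alone, 0.027 without the 2 libraries set apart, and between -0.016 and 0.026 when 1 library was left out. MALT1 did likewise, at 0.0048, 0.019 and between -0.029 and 0.0041. The number of called list genes, 13, became 24 without the libraries set apart and 11 to 22 with 1 library left out. Over all genes, 927 calls (368 higher, 559 lower) became 1553 without a low-count filter (742 higher), 591 higher with DESeq2, 2605 (1181 and 1424) without the libraries set apart, and 396 (without GFP replicate 1) to 1812 (without ADAR1 p110 replicate 1) with 1 library left out, 100 to 795 of them higher and 296 to 1017 lower. The cause was not tested.

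With the replicate block the count was 508 (175 higher, 333 lower), and TRAF2 and OTUB2 were no longer called (log2 fold changes -0.25 and -0.29). Deviations of same-numbered libraries correlated at -0.109, -0.0296 and 0.0433, within the range of differently numbered libraries, -0.143 to 0.161. No shared effect of the number was thus seen. These correlations cannot show whether same-numbered libraries were handled together. Depth limits TNIP3, with 29 to 65 counts in the ADAR1 p110 libraries.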

Other observations

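Transcripts that overlap a member were scarce beside it. The antisense RNA AL357060.2 overlaps TNFAIP3 on the other strand and held 1.88% as many counts. Its counts were 21, 34 and 28 with ADAR1 p110, against 44, 57 and 66 with GFP, with a log2 fold change of -0.99 that was not called. At CYLD, the antisense RNA AC007728.2 counted 14, 10 and 15 reads with ADAR1 p110, against 23, 39 and 23 with GFP, with a log2 fold change of -1.10 that was not called.

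The microRNA gene listed as hsa-mir-3181 lies within CYLD on the same strand. Its counts were 6, 11 and 9 with ADAR1 p110, against 1, 3 and 1 with GFP, the opposite direction to CYLD. It did not pass the low-count filter and was not tested, and reads of the CYLD transcript and of the microRNA gene cannot be told apart here.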
